A study of Mus musculus with 8 samples.

Results

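Thymocyte and T cell genes are described here in fetal vessels of the mouse, array by array. The set was given as 36 gene symbols: the CD3 chains, the genes of receptor gene assembly, the coreceptors, the kinases and adaptors below the receptor, surface costimulatory proteins, nuclear regulators, a few leukocyte genes and a pair of thymic epithelial genes. A member was measured where a probe set was annotated to exactly 1 of these symbols, and each gene stands for the probe set that averaged highest across the 8 arrays. Of the 36 members, 34 were measured in this way, among 18193 genes in all. Lck and Tcf7 had no such probe set and entered only the counts of promoter motifs. The arrays held RNA of 4 pools of ductus arteriosus, the fetal vessel that joins the pulmonary artery to the aorta, and of 4 pools of aorta. All came from untreated mice given as CD88 wild type (strain label CD88) on day 19 of gestation. Each pool joined the segments of up to 10 pups of a pregnant female and was hybridised to 1 array, so the spread between arrays is the spread between pools. A pool of whole segments can hold any cell type dissected with the vessel.

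T cells are made in the thymus, which lies in the upper chest in front of the heart and its great arteries. Progenitors in the thymus rearrange their receptor genes with the RAG recombinase, signal through a pre-TCR that pairs the beta chain with Ptcra, pass a stage with both CD4 and CD8, and are selected on thymic epithelium. Many of these genes are shared by thymocytes and mature T cells, whereas Rag1, Rag2, Dntt and Ptcra mark the immature stages.

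The labelled tissues carried vessel genes. Acta2, the smooth muscle actin, averaged 12.35 ± 0.048 over ductus pools and 12.14 ± 0.218 over aorta pools (log2 mean ± SD, n = 4 each), and the ductus transcription factor Tfap2b averaged 7.59 ± 0.093 over ductus pools and 2.54 ± 0.277 over aorta pools. Correlations over all genes were 0.986 to 0.992 within a tissue and 0.979 to 0.987 between tissues. In the thymocyte genes, 2 arrays had the highest mean of their own tissue: ductus replicate 1 and aorta replicate 4. The mean over the 34 members was 6.19 on ductus replicate 1, against 4.73, 5.24 and 4.10 on ductus replicates 2, 3 and 4. It was 5.62 on aorta replicate 4, against 4.51, 4.06 and 3.87 on aorta replicates 1, 2 and 3. The ductus pools were graded: the members' mean deviation from their tissue mean was 1.13 on replicate 1 and -0.96 on replicate 4. In the aorta this deviation was 1.10 on replicate 4 and -0.65 on replicate 3. Ranges over the list, covariation and differences between the tissues are also given without ductus replicate 1 and aorta replicate 4. All values are log2 expression values. The lower quartile of an array lay between 2.74 and 2.86 and its median between 4.36 and 4.42. A value near the lower quartile is not shown to be above background, since the table has no detection call, and folds against it can be compressed.

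The CD3 chains are shown with their promoters, because 3 of them varied together over the arrays while the probe set used for the other did not. Cd3g, Cd3d and Cd3e are neighbours on chromosome 9, and the starts of Cd3g and Cd3d lie 1355 bases apart on opposite strands. Cd247, the zeta chain, lies on chromosome 1. Rag1, on chromosome 2, is added as a gene of the immature stage. The RefSeq windows (GRCm38.p6) run from 250 bases before to 50 bases after the start, 5′ to 3′ on the strand of the gene. Capitals mark 4 motifs searched on both strands, with no overlap between hits: CAGGTG, bound by E proteins; TGTGGT, bound by Runx factors; CTTTGA, bound by the Tcf7 and Lef1 family; and AGGAAG, an ETS core. The windows are chr9:44980382-44980681 (minus strand) for Cd3g, chr9:44981536-44981835 (plus) for Cd3d, chr9:45009562-45009861 (minus) for Cd3e, chr1:165788431-165788730 (plus) for Cd247 and chr2:101649483-101649782 (minus) for Rag1.
Cd3g: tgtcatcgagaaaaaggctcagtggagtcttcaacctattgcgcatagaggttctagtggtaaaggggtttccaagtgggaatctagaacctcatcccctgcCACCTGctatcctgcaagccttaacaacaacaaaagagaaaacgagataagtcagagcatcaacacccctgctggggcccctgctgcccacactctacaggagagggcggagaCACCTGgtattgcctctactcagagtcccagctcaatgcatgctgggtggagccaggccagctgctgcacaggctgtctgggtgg
Cd3d: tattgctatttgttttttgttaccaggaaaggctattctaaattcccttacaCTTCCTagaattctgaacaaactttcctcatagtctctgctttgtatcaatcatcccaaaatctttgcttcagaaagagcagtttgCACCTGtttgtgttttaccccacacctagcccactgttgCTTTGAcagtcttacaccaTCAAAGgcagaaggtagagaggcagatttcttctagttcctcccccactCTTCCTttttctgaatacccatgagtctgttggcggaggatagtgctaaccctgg
Cd3e: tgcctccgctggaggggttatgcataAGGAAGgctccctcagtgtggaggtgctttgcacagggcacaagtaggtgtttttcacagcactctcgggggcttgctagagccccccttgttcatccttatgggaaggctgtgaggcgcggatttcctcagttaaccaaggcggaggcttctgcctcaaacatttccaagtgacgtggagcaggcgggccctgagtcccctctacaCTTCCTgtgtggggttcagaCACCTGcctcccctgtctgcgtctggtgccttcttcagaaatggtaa
Cd247: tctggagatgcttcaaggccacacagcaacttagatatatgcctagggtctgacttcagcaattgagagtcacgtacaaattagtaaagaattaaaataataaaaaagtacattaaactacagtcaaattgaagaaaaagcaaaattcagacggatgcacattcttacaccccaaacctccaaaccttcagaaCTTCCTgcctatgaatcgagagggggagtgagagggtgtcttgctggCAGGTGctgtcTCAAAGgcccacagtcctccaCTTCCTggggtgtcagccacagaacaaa
Rag1: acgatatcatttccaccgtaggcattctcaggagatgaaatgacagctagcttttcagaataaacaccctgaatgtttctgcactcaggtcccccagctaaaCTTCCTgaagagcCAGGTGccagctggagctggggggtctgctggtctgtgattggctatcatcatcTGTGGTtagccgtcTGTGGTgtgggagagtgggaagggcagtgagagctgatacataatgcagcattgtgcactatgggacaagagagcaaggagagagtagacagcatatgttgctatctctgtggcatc

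The promoter table matched 26 of the 36 members. CAGGTG stood in a window of 12 of these 26 genes, against 22.6% of all 27025 genes of the table. AGGAAG was found for 14 of 26 against 38.4%, CTTTGA for 9 of 26 against 18.2%, and TGTGGT for 7 of 26 against 18.9%. The members had 1.77 windows per gene against 1.22 over all genes, so more sequence was searched for them. Counted per window, CAGGTG was in 20 of 46 member windows against 20.2% of all windows, and AGGAAG in 20 of 46 against 35.4%. CTTTGA was in 12 of 46 against 16.003%, and TGTGGT in 9 of 46 against 16.8%. The 20 windows with CAGGTG came from 12 genes, so windows of the same gene were counted separately and are not independent. Cd3d and Cd247 held the same 3 of the 4 motifs, all but the Runx one, although their used probe sets had different patterns over the arrays. A match is a run of letters and does not show binding.

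Among the CD3 chains, Cd3e had values of 8.77, 7.25, 8.01 and 4.71 on ductus replicates 1 to 4, against 6.55, 4.85, 3.88 and 8.31 on aorta replicates 1 to 4. The highest ductus pool was 16.8-fold above the lowest, the highest aorta pool was 21.5-fold above the lowest, and the tissues overlapped. Cd3g, which pairs with Cd3e, was at 7.61, 5.86, 6.32 and 3.23 in the ductus, against 4.69, 3.19, 3.29 and 6.53 in the aorta. Cd3d, the other partner of Cd3e, was at 8.10, 6.06, 7.54 and 5.82 in the ductus, against 5.14, 4.80, 5.18 and 7.26 in the aorta. All 3 of these chains were highest on ductus replicate 1 and on aorta replicate 4.

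Cd247, which carries most of the signalling motifs of the receptor, had 4 probe sets that disagreed. The used one was at 4.66, 4.81, 4.25 and 4.90 in the ductus, against 5.27, 4.68, 4.73 and 4.82 in the aorta, without the order of the other chains. Another was at 4.95, 3.31, 3.67 and 3.01 in the ductus, against 3.12, 2.86, 2.83 and 3.71 in the aorta, highest on ductus replicate 1 and aorta replicate 4. The other two lay below every array median.

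Genes of receptor assembly and the pre-TCR were all highest on the same 2 arrays. Rag1, a subunit of the recombinase, was at 8.19, 5.94, 6.42 and 4.15 in the ductus, against 5.21, 4.22, 3.34 and 6.53 in the aorta. Its partner and neighbour Rag2 was at 4.93, 2.91, 3.43 and 3.17 in the ductus, against 3.12, 2.85, 3.11 and 4.02 in the aorta, so that most of its pools lay near the lower quartile. Dntt, which adds bases at receptor junctions, was at 7.84, 5.20, 6.70 and 3.84 in the ductus, against 4.16, 4.06, 4.17 and 7.15 in the aorta. In the aorta, Dntt was thus level on replicates 1 to 3 and high on replicate 4. Ptcra was at 6.42, 3.89, 4.46 and 3.36 in the ductus, against 3.99, 3.05, 2.58 and 6.47 in the aorta.

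Of the coreceptors, Cd8a had the widest range of all members in both tissues. It was at 9.47, 7.26, 8.29 and 4.64 in the ductus, against 6.66, 4.91, 3.38 and 9.03 in the aorta. This is a 28.4-fold range over the ductus pools and a 50.2-fold range over the aorta pools; without ductus replicate 1 and aorta replicate 4 the ranges were 12.5-fold and 9.71-fold. Cd8b1, its partner chain and neighbour on chromosome 6, was at 5.69, 3.23, 3.83 and 2.49 in the ductus, against 2.80, 3.06, 2.68 and 4.67 in the aorta. Cd4 was at 5.10, 3.88, 4.07 and 3.89 in the ductus, against 3.76, 3.83, 3.89 and 4.41 in the aorta. All 3 coreceptor genes were highest on the same 2 arrays, with Cd4 over a smaller range than the CD8 chains.

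**Figure D1:**
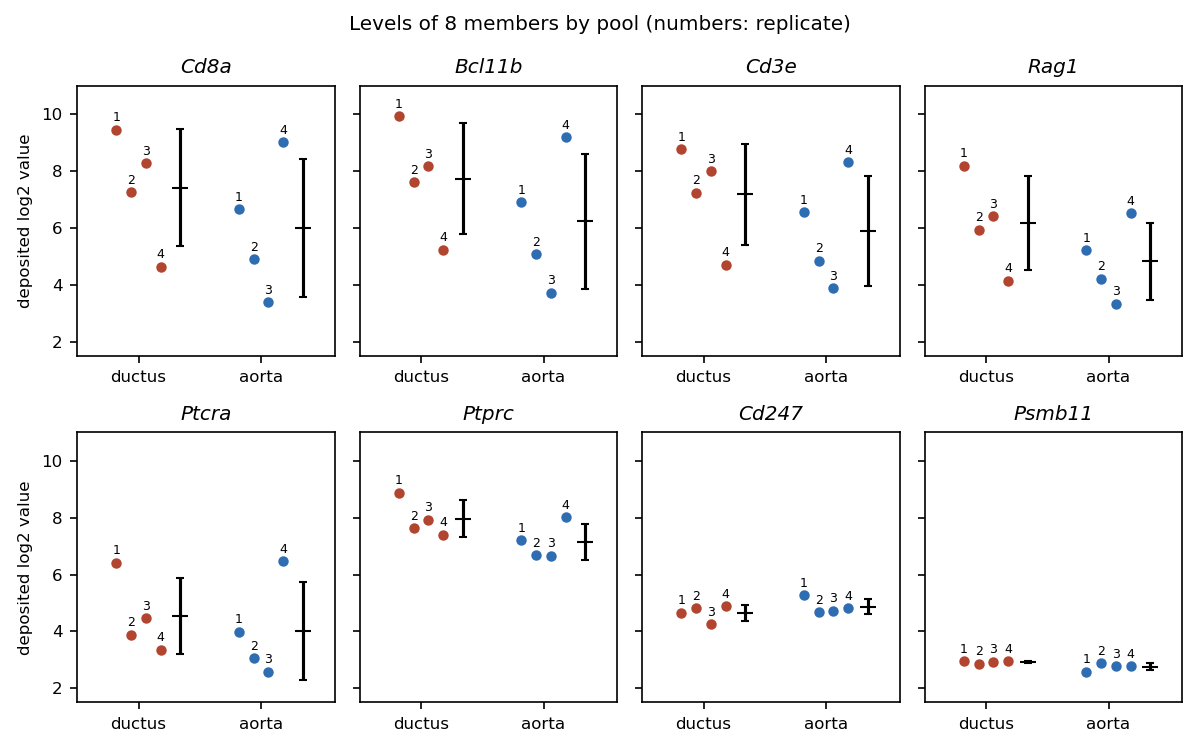
Log2 values of 8 members (vertical axis, deposited values) in the 4 ductus pools (left in each panel) and the 4 aorta pools (right), numbered by replicate, with the mean ± SD as black bars. Cd8a reached 9.47 on ductus replicate 1 and 9.03 on aorta replicate 4, and was at 4.64 on ductus replicate 4 and 3.38 on aorta replicate 3.

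Of the 6 measured signalling genes, 4 were highest on both arrays. Themis, a protein needed for positive selection of thymocytes, was at 6.74, 4.08, 5.54 and 2.96 in the ductus, against 3.53, 2.95, 3.04 and 5.54 in the aorta. Lat, the membrane scaffold phosphorylated by Zap70, was at 5.81, 3.69, 5.08 and 3.19 in the ductus, against 3.28, 3.19, 3.27 and 4.79 in the aorta. The adaptor Sh2d1a was at 5.70, 3.39, 3.71 and 2.76 in the ductus, against 2.90, 2.60, 2.56 and 3.82 in the aorta. Trat1, an adaptor that stabilises the receptor complex, was at 4.70, 2.47, 3.31 and 2.13 in the ductus, against 2.10, 2.26, 2.18 and 3.34 in the aorta. All 4 had 1 aorta pool, replicate 4, above the rest. The kinase Zap70 and Ubash3a, which dampens receptor signalling, stayed below every array median, with Zap70 between 3.40 and 3.98 in the ductus, against 3.52 and 3.75 in the aorta.

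Of the 6 adhesion and costimulation genes, 4 were highest on both arrays. Cd2, an adhesion receptor, was at 5.72, 3.86, 4.84 and 3.19 in the ductus, against 4.54, 2.63, 2.43 and 5.86 in the aorta. Cd27, a costimulatory receptor of the TNF receptor family, was at 4.76, 2.95, 3.81 and 3.37 in the ductus, against 2.94, 3.04, 2.47 and 4.47 in the aorta. Cd28, the costimulatory receptor for CD80 and CD86, was at 4.36, 2.87, 3.06 and 2.51 in the ductus, against 2.94, 2.38, 2.91 and 4.13 in the aorta. All 3 were highest on ductus replicate 1 and aorta replicate 4, and Cd2 was also higher on aorta replicate 1 relative to replicates 2 and 3. Cd5, which dampens receptor signals, was highest on the same 2 arrays at low values, with 3.29 on ductus replicate 1 and 3.63 on aorta replicate 4. Its relative and neighbour Cd6 (2.68 to 3.01 in the ductus, against 2.98 to 3.13 in the aorta) and Cd96 (2.39 to 3.17 in the ductus, against 2.29 to 2.80 in the aorta) were not.

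Nuclear and RNA regulators held the second widest member. Bcl11b, the zinc finger factor that commits progenitors to the T lineage, was at 9.94, 7.61, 8.19 and 5.23 in the ductus, against 6.92, 5.08, 3.73 and 9.21 in the aorta, ranges of 26.1-fold and 44.6-fold. Ikzf3, the lymphoid factor Aiolos, was at 6.13, 3.63, 4.67 and 2.92 in the ductus, against 3.49, 3.24, 2.57 and 5.28 in the aorta. Both had the same pools at the top and at the bottom as Cd8a and Cd3e. Satb1, a chromatin organiser, was at 10.24, 9.31, 9.40 and 8.04 in the ductus, against 8.89, 8.64, 8.22 and 9.72 in the aorta. Ikzf1, the related factor Ikaros, was at 8.98, 7.85, 8.38 and 7.64 in the ductus, against 7.92, 7.51, 7.23 and 8.58 in the aorta. Satb1 and Ikzf1 had the same order, over smaller ranges and from a higher base. Arpp21, an RNA-binding phosphoprotein of thymocytes and neurons, was at 5.27, 3.68, 4.73 and 3.04 in the ductus, against 2.99, 2.78, 2.67 and 4.39 in the aorta. Tox, a nuclear factor of thymocyte selection, differed in the aorta: it was at 5.83, 4.35, 4.44 and 4.79 in the ductus, against 5.52, 5.20, 4.92 and 5.32 in the aorta, highest there on replicate 1.

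Genes shared with other cells were uneven. Ptprc, the leukocyte phosphatase CD45, was at 8.88, 7.64, 7.93 and 7.40 in the ductus, against 7.21, 6.68, 6.67 and 8.03 in the aorta. Coro1a, an actin regulator of leukocytes, was at 10.24, 9.56, 9.79 and 9.30 in the ductus, against 9.78, 9.51, 9.09 and 10.37 in the aorta. Both followed the T cell genes. Cd1d1, a lipid-presenting molecule of many cell types, was at 6.75, 7.21, 6.64 and 6.57 in the ductus, against 6.74, 6.32, 6.74 and 6.01 in the aorta. It was lowest on aorta replicate 4, where most members were highest, by a probe set of a kind that can detect related transcripts too. The other Cd1d1 probe set was at 6.43, 6.39, 6.21 and 5.70 in the ductus, against 6.47, 6.00, 6.45 and 6.38 in the aorta, lowest there on replicate 2.

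The thymic epithelial members differed. Prss16, a serine protease of the thymic cortex, was at 4.20, 2.98, 3.05 and 2.70 in the ductus, against 2.48, 2.95, 2.62 and 3.82 in the aorta, highest on the same arrays as the thymocyte genes. Psmb11, the thymoproteasome subunit, lay between 2.87 and 2.95 in the ductus, against 2.58 and 2.89 in the aorta. Both stayed below every array median, as did Zap70, Ubash3a, Cd5, Cd6 and Cd96, 7 members in all.

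Counted over the list, 30 of 34 members were highest in the ductus on replicate 1, against 26.7% of all genes, and 28 were highest in the aorta on replicate 4, against 30.9%. Both held for 26 members, against 11.2% of all genes. The full ductus order of replicates 1, 3, 2 and 4 from high to low was found for 23 members, against 5.44%, and replicate 4 followed by 1 in the aorta for 21, against 10.1%. Both orders held for 17 members, among them Cd3e, Rag1, Cd8a and Bcl11b, against 1.02%. At the low end, 26 members were lowest in the ductus on replicate 4, against 23.5%, while the aorta low was split: 17 were lowest on replicate 3, against 25.7%, and 11 on replicate 2, against 20.6%. The members were read from the same arrays and are not independent, so these counts describe the pools.

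**Figure D2:**
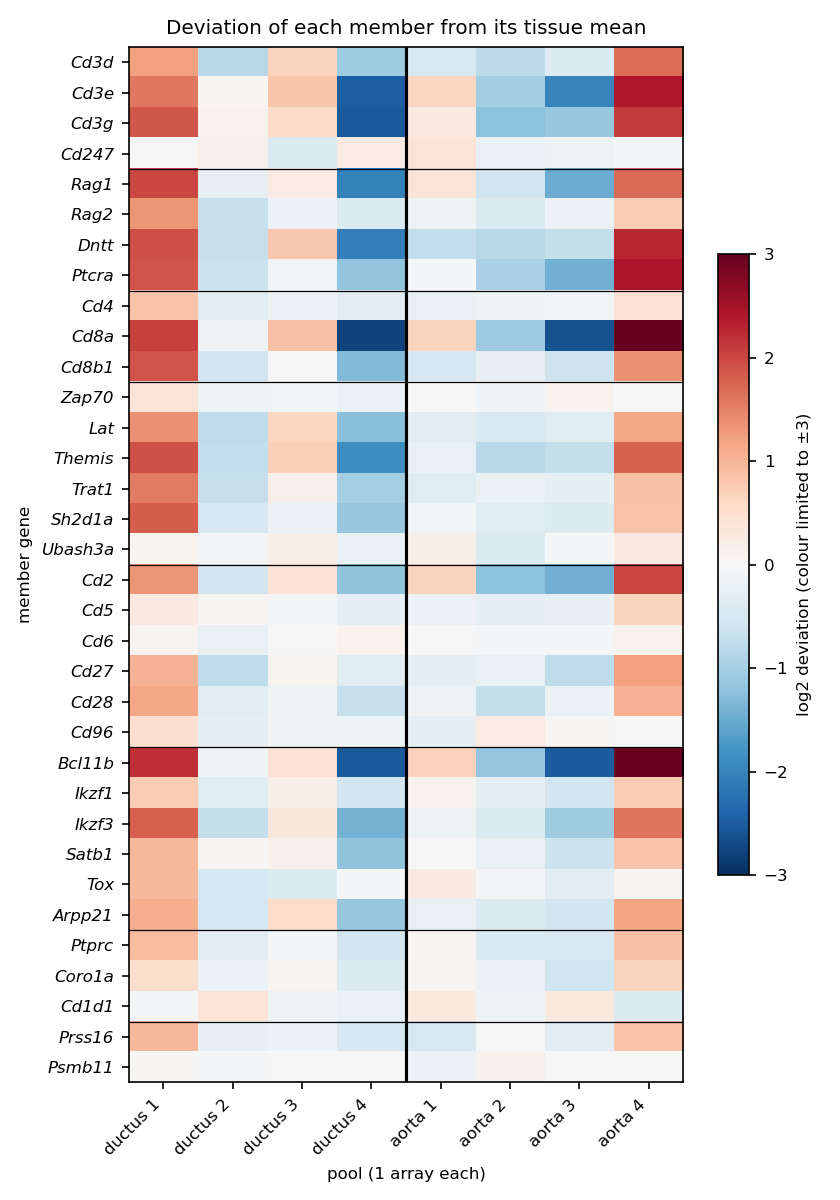
Deviation of each of the 34 members (rows) from its own tissue mean (colour, log2, limited to ±3) on the ductus pools (left) and the aorta pools (right). On ductus replicate 1, 33 members were above their tissue mean, against 53.4% of all genes, and on aorta replicate 4, 30 were, against 54.7%. On ductus replicate 4, 3 members were, against 48.2%, and on aorta replicate 2, 2 were, against 52.6%.

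The spread within a tissue was wide for most members. The median of the highest minus the lowest pool was 2.11 for members and 0.42 for all genes in the ductus, and 1.43 for members and 0.47 for all genes in the aorta (log2). A range of at least 1 was reached in the ductus by 25 of 34 members, against 8.33% of all genes, and in the aorta by 24, against 9.86%. Over ductus replicates 2 to 4, without replicate 1, the median range was 0.90 for members and 0.33 for all genes, and 16 members reached 1, against 5.92% of all genes. Over aorta replicates 1 to 3, without replicate 4, the median range was 0.56 for members and 0.36 for all genes, and 7 members reached 1 (Cd3e, Cd3g, Rag1, Ptcra, Cd8a, Cd2 and Bcl11b), against 5.47%.

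**Figure D3:**
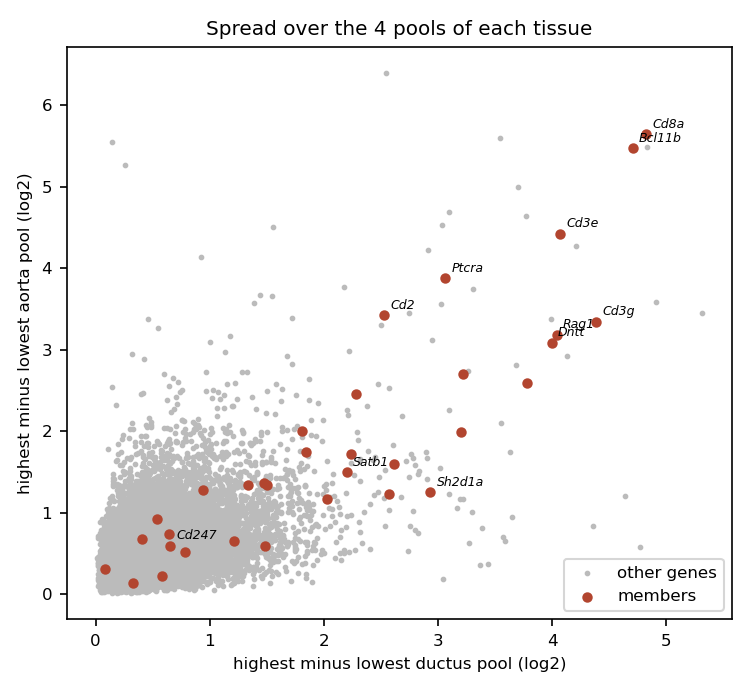
Highest minus lowest pool of the ductus (horizontal, log2) against the same of the aorta (vertical, log2) for the members (coloured) and all other genes (grey). Cd8a had ranges of 4.83 and 5.65, against medians of 0.42 and 0.47 over all genes.

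Covariation was described by Pearson's r between a member's deviations from its tissue means and the mean deviation of the other members, over 8 arrays and with no p, since the points share pools and normalization. An r of at least 0.9 was found for 22 of 34 members, against 1.30% of all genes, and the median over members was 0.93. Over the 6 arrays without ductus replicate 1 and aorta replicate 4, 13 members had an r of at least 0.9, against 1.62% of all genes, with a median of 0.83. Sh2d1a (0.98), Cd3e (0.96), Ikzf3 (0.96), Rag1 (0.96) and Cd8a (0.955) were among these 13. The relation rested on the pools left out for Rag2 (r of 0.87 over 8 arrays and 0.37 over 6), Cd4 (0.86 and 0.32) and Prss16 (0.89 and 0.31). Members with a low r over 8 arrays were Ubash3a (0.67), Zap70 (0.62), Tox (0.60), Cd96 (0.42), Cd6 (0.38), Psmb11 (-0.06), Cd247 (-0.17) and Cd1d1 (-0.39).

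Probe sets that were not used gave a second reading. The members had 72 probe sets in all, and of the 38 not used, 24 lay below every array median. Of the 38, 28 were highest on ductus replicate 1, against 26.7% of all genes by their used probe sets. On aorta replicate 4, 26 of the 38 were highest, against 30.9% of all genes. The shares over all probe sets were not computed. A second Dntt probe set was at 7.21, 4.59, 5.71 and 3.82 in the ductus, against 2.81, 3.46, 3.39 and 6.80 in the aorta. A second Bcl11b probe set was at 6.75, 4.38, 4.97 and 3.67 in the ductus, against 4.56, 4.08, 3.55 and 5.75 in the aorta. A second Satb1 probe set was at 5.94, 4.11, 4.75 and 3.63 in the ductus, against 3.73, 3.96, 3.53 and 5.53 in the aorta. Other unused probe sets did not repeat the order in the aorta. A Cd8a probe set was at 2.93, 2.29, 2.23 and 2.54 there. A second Ptprc probe set was at 3.67 on aorta replicate 1 and 3.64 on replicate 4. The second Cd1d1 probe set was also highest on aorta replicate 1. All these probe sets are read from the same RNA and are not further samples.

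Between the tissues, no member was called. With limma over all 18193 genes (ductus minus aorta, Benjamini-Hochberg adjustment), 0 of 34 members had an adjusted p under 0.05, against 3.86% of all genes (1.80% higher in the ductus and 2.06% higher in the aorta). At an unadjusted p under 0.05 the count was also 0, against 16.1%. The pools of both tissues overlapped for every one of the 34 measured members, whereas 11.3% of all genes had no overlap. Fewer cells of a type and less RNA per cell cannot be told apart in such pools.

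The difference was above 0 for 29 of 34 members, against 44.0% of all genes, with a median of 0.50 for members and -0.03 for all genes. Bcl11b averaged 7.74 ± 1.94 over ductus pools and 6.23 ± 2.38 over aorta pools (SD, n = 4 each), a difference of 1.51 ± 1.23 (SE; limma adjusted p = 0.620). Cd8a differed by 1.42 ± 1.27 (limma adjusted p = 0.662) and Cd3e by 1.29 ± 1.05 (limma adjusted p = 0.622). Ptprc had the smallest adjusted p of the members, with 7.96 ± 0.65 over ductus pools and 7.15 ± 0.64 over aorta pools, a difference of 0.81 ± 0.37 (limma adjusted p = 0.324). Tox had the lowest difference, at -0.39 ± 0.30 (limma adjusted p = 0.601). The median residual SD was 0.80 for members and 0.22 for all genes, and a p above the threshold does not show that the tissues held equal amounts.

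**Figure D4:**
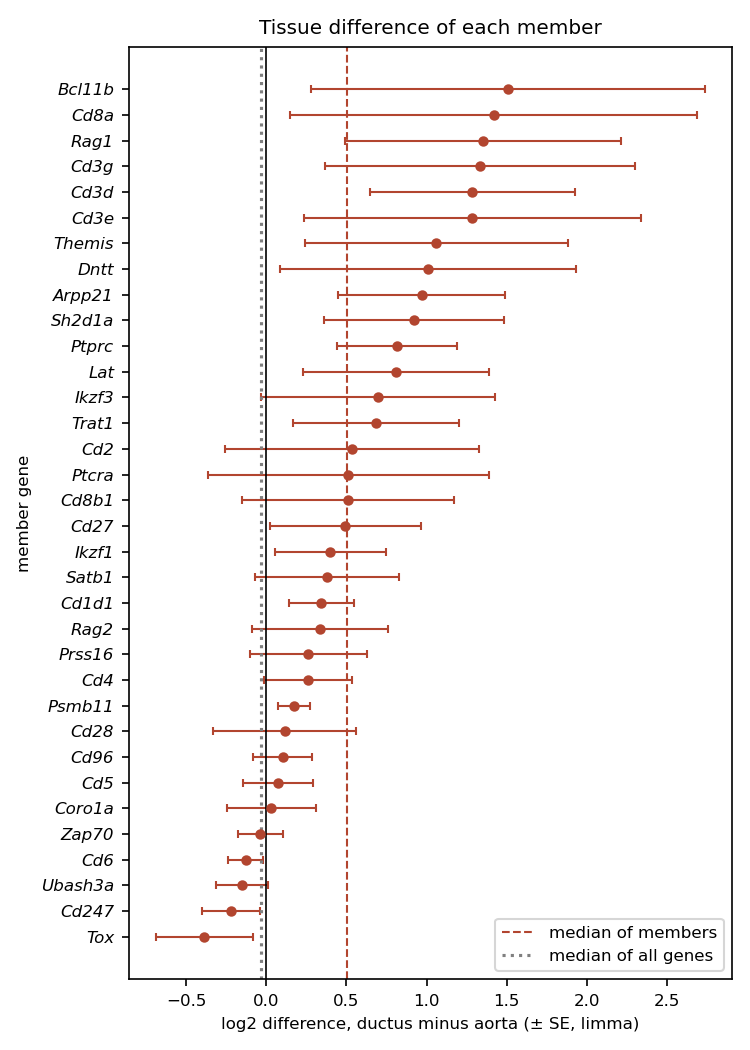
Log2 difference, ductus minus aorta, of each member (rows) with limma's standard error (bars), beside the median of the members (0.50) and of all genes (-0.03). The values run from -0.39 for Tox to 1.51 for Bcl11b, and no member passed the test.

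The median difference followed single pools. It was 0.12 without ductus replicate 1, with 14 members below 0, and 0.94 without aorta replicate 4. It was 0.84 without ductus replicate 4, 0.30 without aorta replicate 2 and 0.26 without aorta replicate 3. Without both ductus replicate 1 and aorta replicate 4, an alternative chosen after seeing the data, it was 0.43; 0 members were called by limma and 5 had an unadjusted p under 0.05, against 12.5% of all genes.

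Other thymocyte genes were read from a separate list of 38 symbols, 36 of them measured. Of these, 19 were highest on both ductus replicate 1 and aorta replicate 4, against 11.2% of all genes. An r of at least 0.9 was found for 7, against 1.30%. Only 1 of the 36 passed the test, against 3.86% of all genes: Runx1, a transcription factor of blood and mesenchymal cells. It was at 6.03, 5.55, 4.84 and 5.56 in the ductus, against 4.45, 3.69, 3.58 and 4.32 in the aorta, higher by 1.49 ± 0.28 (limma adjusted p = 0.0166). Its tissues did not overlap, and its pools did not have the order of the members. Of 13 measured genes of mature T cells and egress, 0 passed, against 3.86% of all genes, and 1 had an unadjusted p under 0.05, against 16.1%. Only 1 was highest on both arrays, against 11.2%. Of the 13, 9 lay below every array median, where a pool pattern may not be seen. The gene highest on both arrays was Gzma, a granule protease. It was at 6.25, 3.72, 5.65 and 2.94 in the ductus, against 3.35, 2.89, 2.47 and 6.22 in the aorta.

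The 10 genes outside the set with the closest pattern were taken by r with the members' mean deviation over 8 arrays, among 3956 candidates. Candidates had a range of at least 1 over the 8 arrays of both tissues together, so a tissue difference could meet it. Model or clone names and genes on X or Y were left out. The 10 genes were Esam, Cpa3, Endou, Ccr9, Nsg2, Glrx5, Odc1, Psmb8, Acap1 and Il2ra, with r between 0.97 and 0.99. Of these, 2 (Endou and Ccr9) were on the list of other thymocyte genes. Ccr9, a chemokine receptor that guides progenitors to the thymus, was at 8.003, 5.52, 6.57 and 3.80 in the ductus, against 5.73, 4.19, 3.31 and 7.58 in the aorta. Cpa3, a protease of mast cells, was at 7.29, 5.89, 6.50 and 5.72 in the ductus, against 5.94, 5.61, 5.21 and 6.63 in the aorta. Il2ra, the CD25 chain of early thymocytes and activated T cells, was at 4.26, 3.28, 3.31 and 2.62 in the ductus, against 3.03, 2.73, 2.68 and 3.56 in the aorta. Esam, an adhesion molecule of endothelium and platelets, was at 8.02, 7.39, 7.56 and 7.19 in the ductus, against 8.19, 8.09, 7.88 and 8.65 in the aorta.

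Markers of other cells moved with the same arrays to different extents. All 8 measured erythroid genes were highest on ductus replicate 1 and on aorta replicate 4, against 11.2% of all genes. Among them, Hba-a1 lay near or below the lower quartile, at 2.42 to 2.60 in the ductus, against 2.26 to 2.74 in the aorta. The mean of all 8 was 8.08, 7.49, 7.55 and 7.50 in the ductus, against 7.42, 6.84, 7.02 and 7.82 in the aorta. Gata1, the erythroid transcription factor, was at 7.59, 6.50, 6.92 and 6.43 in the ductus, against 6.52, 5.74, 5.73 and 7.14 in the aorta. Of 24 measured cell cycle genes, 13 were highest on both arrays, against 11.2% of all genes. The mean of the 24 ran from 7.95 to 8.30 in the ductus, against 7.86 to 8.24 in the aorta. The part of either list in the pattern of the thymocyte genes was not tested.

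Of 18 measured thymic epithelial markers beyond the members, 3 were highest on both arrays, against 11.2% of all genes, 0 had an r of at least 0.9, and the mean ran from 4.68 to 5.06 in the ductus, against 4.74 to 5.12 in the aorta. The 3 were Tbata, Ccl25 and Cd83, which were named, like Foxn1, after their values were seen. Tbata, a gene of thymus and brain, was at 4.59, 3.04, 3.64 and 3.00 in the ductus, against 3.39, 3.48, 2.99 and 3.55 in the aorta, with an r of 0.82. Ccl25, the ligand of Ccr9, was at 6.63, 5.30, 5.85 and 5.83 in the ductus, against 5.41, 5.87, 6.06 and 6.29 in the aorta, with an r of 0.61. Cd83, a surface protein of thymic epithelium and dendritic cells, was at 7.89, 7.47, 6.83 and 7.45 in the ductus, against 7.17, 6.35, 6.93 and 7.75 in the aorta, with an r of 0.60. These 3 genes shared the top arrays but not the full order in both tissues. Foxn1, the factor that defines thymic epithelium, was at 3.30, 3.31, 2.99 and 3.31 in the ductus, against 3.75, 3.31, 3.37 and 3.60 in the aorta, below every array median. Ly75, a receptor of thymic cortex and dendritic cells, averaged 6.98 ± 0.13 over ductus pools and 6.42 ± 0.15 over aorta pools (SD, n = 4 each), higher by 0.56 ± 0.12 (limma adjusted p = 0.0319). Its highest pool was replicate 3 in both tissues.

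Of 10 measured B cell genes, 1 was highest on both arrays, against 11.2% of all genes. So were 2 of 16 macrophage and dendritic cell genes and 2 of 12 genes of gamma delta, NK and innate lymphoid cells. In the ductus alone, 10 of the 16 macrophage and dendritic cell genes were highest on replicate 1, against 26.7% of all genes. The mean of that list was 7.17, 6.37, 7.03 and 6.77 in the ductus, against 6.91, 7.04, 6.70 and 6.92 in the aorta. None of the 9 brown adipocyte and 10 skeletal muscle genes was highest on both arrays. The skeletal muscle mean was 4.00, 3.79, 6.14 and 4.02 in the ductus, against 3.61, 3.47, 3.57 and 3.94 in the aorta, high on ductus replicate 3. In the aorta, 7 of the 10 skeletal muscle genes were highest on replicate 4, against 30.9% of all genes. The adipocyte mean was 6.43, 6.63, 5.97 and 5.98 in the ductus, against 5.29, 5.90, 7.59 and 6.82 in the aorta, high on aorta replicate 3. The part of these lists in the pattern of the thymocyte genes was not tested either. Of the smooth muscle genes, 5 of 10 passed as higher in the ductus, against 1.80% of all genes. Of the endothelial genes, 3 of 10 passed as lower in the ductus, against 2.06%. In each of these lists, 1 gene was highest on both arrays.

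**Figure D5:**
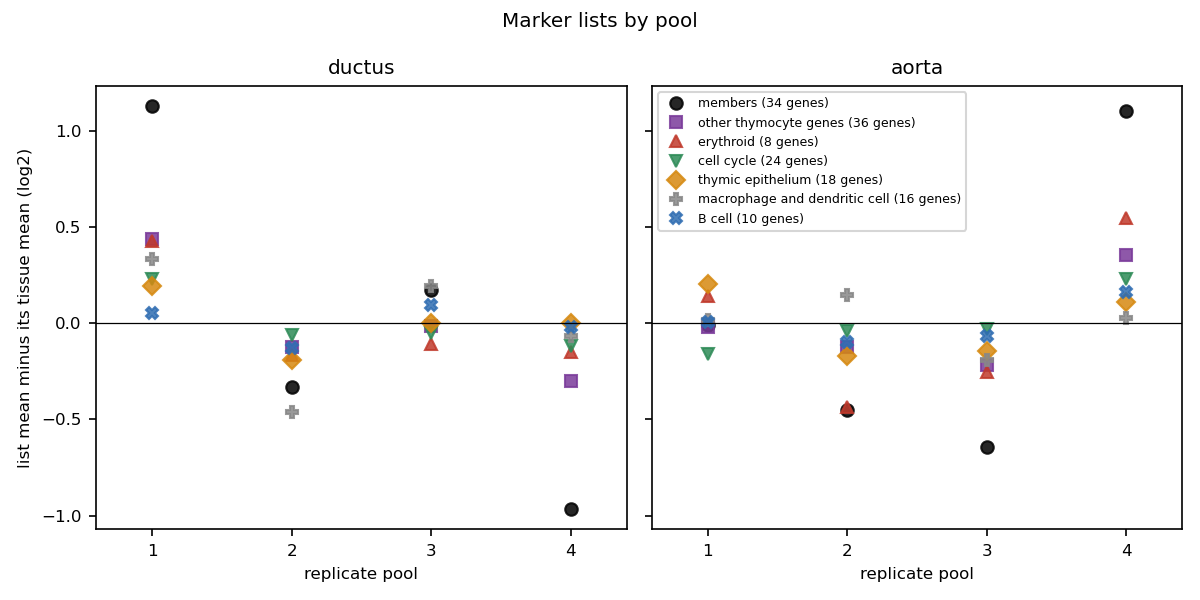
Mean of the members and of 6 marker lists (symbols), each minus its own mean in that tissue (vertical, log2), on the 4 ductus pools (left) and the 4 aorta pools (right). The members stood 1.13 above their tissue mean on ductus replicate 1 and 1.10 above it on aorta replicate 4, farther than any of the other 6 lists drawn.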

How the data were processed

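Total RNA of 4 ductus and 4 aorta pools was measured on Affymetrix mouse arrays, 1 array a pool. The deposited values are log2 expression values made by the authors with Partek 6.6 and RMA, per the submitters' processing notes. The sources used here do not give their order or settings. RMA normally includes quantile normalization, which can compress differences between pools. No probe set value was missing, and the number of arrays limits the precision.

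Of 45101 probe sets, 64 were controls, 9160 had no entry in the annotation, 932 had several symbols and 34945 had 1. Gene IDs matched 34741 of the last group to the RefSeq gene table, and 204 were named by the platform alone. A gene (18193 in all) took its probe set of highest mean, with no filter on low values. Differences were fitted in R 4.3.3 by lmFit and eBayes of limma 3.58.1 (two-sided, no covariate), adjusted by Benjamini-Hochberg over all genes and called under 0.05. The fit was also run on simulated arrays of 18193 genes for ductus minus aorta. It recovered 63 of 100 genes shifted by log2 1 and 93 of 100 shifted by log2 2, and made 5 false calls. The shifted genes were picked at random from all genes, with independent noise at each gene's own residual SD. The members had a median residual SD of 0.80, against 0.22 over all genes, and varied together. These recovery rates therefore do not apply to the members.

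The members and the 12 marker lists were chosen with earlier results of these data known. All measured members are named; of each marker list, the rule took up to 4 called genes with the smallest adjusted p, or, with none called, up to 2 with the largest difference; it also took the 10 genes most alike. Not every gene so named is printed. Of 185 marker genes, 175 were measured, and the others are not reported here. Alternatives covered array scaling, low-value filters, choice of probe set, variance prior, array weights, a replicate block and leaving out arrays.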

Additional observations from a re-analysis of the deposited data

Results flagged for a closer look

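In 6 of the 68 groups of 4 pools (34 members in 2 tissues), a single pool lay far from the others, by Dixon's criterion for 4 values. The criterion is set to flag about 1 in 20 unrelated groups. The members share pools and were chosen with earlier results known, so the count cannot be set against that rate. Of the 6 flagged pools, 5 were aorta replicate 4. Cd3d was at 7.26 there, with the next aorta pool at 5.18. Dntt was at 7.15, with the next at 4.17. Lat was at 4.79, with the next at 3.28. Trat1 was at 3.34, with the next at 2.26, and Cd5 at 3.63, with the next at 2.78, the last below every array median. The other was Cd4 on ductus replicate 1, at 5.10, with the next ductus pool at 4.07.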

How the results depend on the processing

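Over 18 alternatives, 545 of 567 values of single members kept their direction, 22 had the opposite one (12 members), and 0 were called by limma. At most 6 of 34 members reached an unadjusted p under 0.05 (without ductus replicate 4), against 14.4% of all genes in that fit. The lowest limma adjusted p was 0.081 (Tox without ductus replicate 1). Of all genes, 702 were called, 403 with the replicate block, 321 without both ductus replicate 1 and aorta replicate 4 (chosen after seeing the data), and 443 to 705 without 1 array. Of the marker list genes, 12 were called, 6 with the replicate block, 4 without both arrays, and 19 each without the lowest 40% of genes and with the trend and robust prior. The labels do not say whether same-numbered ductus and aorta pools came from the same litter. Same-numbered pools had correlations of deviations of -0.07, -0.15, -0.19 and -0.23, and 0 of 4 ductus pools correlated best with its own number. Such values cannot decide whether the pools were paired, since tissue carried in single pools can also shape the deviations. The median difference of members was 0.50 with the block too, and 0.12 to 0.94 without 1 array. Differences of opposite sign were 0.0903 (mean over probe sets) and 0.61 (probe set of largest interquartile range) for Cd247, 0.0216 (mean over probe sets) for Zap70, -0.0683 for Coro1a and -0.14 for Cd1d1 (largest interquartile range), and -0.0725 for Cd96 without both arrays. Leaving out 1 array gave -0.10 to 0.58 for Rag2, -0.12 to 1.32 for Ptcra, -0.0264 to 0.41 for Cd4, -0.12 to 0.97 for Cd8b1, -0.17 to 0.0251 for Zap70, -0.0126 to 0.30 for Cd5, -0.27 to 0.46 for Cd28, -0.0656 to 0.19 for Cd96, -0.17 to 0.26 for Coro1a and -0.0599 to 0.55 for Prss16. The cause was not tested. Across scalings and choices of probe set, 29 to 32 members were highest on ductus replicate 1 and 27 to 29 on aorta replicate 4.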
